A study of Homo sapiens with 9 samples.

Results

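The genes described here are 8 regulators of chromatin and transcription whose expression is normally centred on the germ cells of the testis: *DMRTB1*, *DMRT1*, *SOHLH1*, *SOHLH2*, *BRDT*, *PRDM9*, *CTCFL* and *TAF7L*. They were chosen by symbol, through the Ensembl identifiers of the count tables, and are 8 of the 60617 genes counted. RNA-seq was performed on PC-3 cells, an established human line of castration-resistant prostate cancer grown in RPMI1640 medium. The control group comprised 3 vehicle-treated libraries. The decitabine group comprised 3 libraries from cultures given decitabine at 1 µM, and the combination treatment group comprised 3 libraries from cultures given the same dose together with S-adenosylmethionine (SAM) at 200 µM. Treatment lasted 5 days in the labels, and cultures given only SAM were not analysed here. All groups come from 1 cell line, and the labels do not say whether libraries of a group are separate cultures, so p-values measure only the spread between these libraries. Doses are those of the study's methods.

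Decitabine is a cytidine analogue that is built into DNA and traps DNA methyltransferases, so that methylation is lost as cells divide. SAM is the methyl donor of these enzymes. In normal somatic tissue many germline genes carry a methylated promoter and are silent, which is why drugs of this class are often read out through such genes. The 8 genes act at successive steps of germ cell development. *SOHLH1* and *SOHLH2* encode basic helix-loop-helix factors of spermatogonia, *DMRT1* and *DMRTB1* encode DM-domain factors that guide the exit from mitosis into meiosis, and *PRDM9* encodes the histone methyltransferase that places meiotic recombination. *CTCFL*, also called *BORIS*, is the germline paralog of *CTCF*. *TAF7L* is the X-linked paralog of *TAF7*, a subunit of the general transcription factor TFIID. *BRDT* encodes the testis member of the BET proteins, which bind acetylated histones.

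The stretches upstream of 4 of the genes are shown because these genes span the range of the data: *DMRTB1* reached the highest level, *SOHLH2* had no control count, *BRDT* had 1 control count, and *TAF7L* was the member with at least 13 counts in every control library. Sequences are from RefSeq on GRCh38.p14, 5′ to 3′ on the gene's own strand, with each CpG site in capitals. They cover DMRTB1 at chr1:53459149-53459398 (plus strand), BRDT at chr1:91949121-91949342 (plus strand), SOHLH2 at chr13:36214589-36214806 (minus strand) and TAF7L at chrX:101293084-101293333 (minus strand).
DMRTB1: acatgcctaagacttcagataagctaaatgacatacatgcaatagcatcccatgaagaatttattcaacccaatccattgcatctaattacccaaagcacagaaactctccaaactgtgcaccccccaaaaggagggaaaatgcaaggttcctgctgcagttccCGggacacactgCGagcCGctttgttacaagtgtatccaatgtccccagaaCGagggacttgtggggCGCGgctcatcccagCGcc
BRDT: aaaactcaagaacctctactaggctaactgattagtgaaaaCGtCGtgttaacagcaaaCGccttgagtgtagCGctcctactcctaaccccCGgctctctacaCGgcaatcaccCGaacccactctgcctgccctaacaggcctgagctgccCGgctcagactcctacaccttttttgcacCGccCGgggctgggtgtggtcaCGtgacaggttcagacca
SOHLH2: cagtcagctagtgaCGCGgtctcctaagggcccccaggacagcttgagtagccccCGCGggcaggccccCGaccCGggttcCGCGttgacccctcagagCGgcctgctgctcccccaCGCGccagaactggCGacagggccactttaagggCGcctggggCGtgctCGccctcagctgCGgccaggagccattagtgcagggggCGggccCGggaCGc
TAF7L: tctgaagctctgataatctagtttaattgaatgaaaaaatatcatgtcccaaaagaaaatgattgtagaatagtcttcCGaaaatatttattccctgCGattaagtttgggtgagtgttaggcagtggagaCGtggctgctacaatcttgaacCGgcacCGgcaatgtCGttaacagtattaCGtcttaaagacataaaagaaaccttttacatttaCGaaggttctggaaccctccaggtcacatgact
The *DMRTB1* stretch of 250 bases held 7 CpG sites, grouped toward the start of transcription. The *BRDT* stretch of 222 bases held 11, the *SOHLH2* stretch of 218 bases held 19, and the *TAF7L* stretch of 250 bases held 8. RefSeq gave windows for all 8 genes, 13 windows in all.

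In the windows of 250 bases before an annotated start, CpG sites numbered 20 and 17 in *DMRT1*, 20 in *SOHLH2*, 19 in *SOHLH1*, 14 and 19 in *BRDT*, 12 in *PRDM9*, 15, 7 and 2 in *CTCFL*, 8 and 33 in *TAF7L* and 7 in *DMRTB1*. Over all 35116 windows of the table the median was 11, with quartiles of 3 and 23, so all but the 33-site window of *TAF7L* and the 2-site window of *CTCFL* lay between the quartiles. The window of *DMRTB1*, the gene with the highest level after treatment, was poorer in CpG than the median, and 43.7% of all windows held as few sites. The letters CACGTG, a palindrome and a form of the E-box bound by basic helix-loop-helix factors, stood in both *BRDT* windows and in the *SOHLH1* window, and in 6.3% of all windows. The *BRDT* windows overlap and share the copy that can be read near the end of the stretch shown above. The letters ACANTGT, a core of the DM-domain motif searched on both strands, stood in none of the 13 windows and in 4.5% of all windows. Methylation of these windows was not analysed here.

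**Figure D1:**
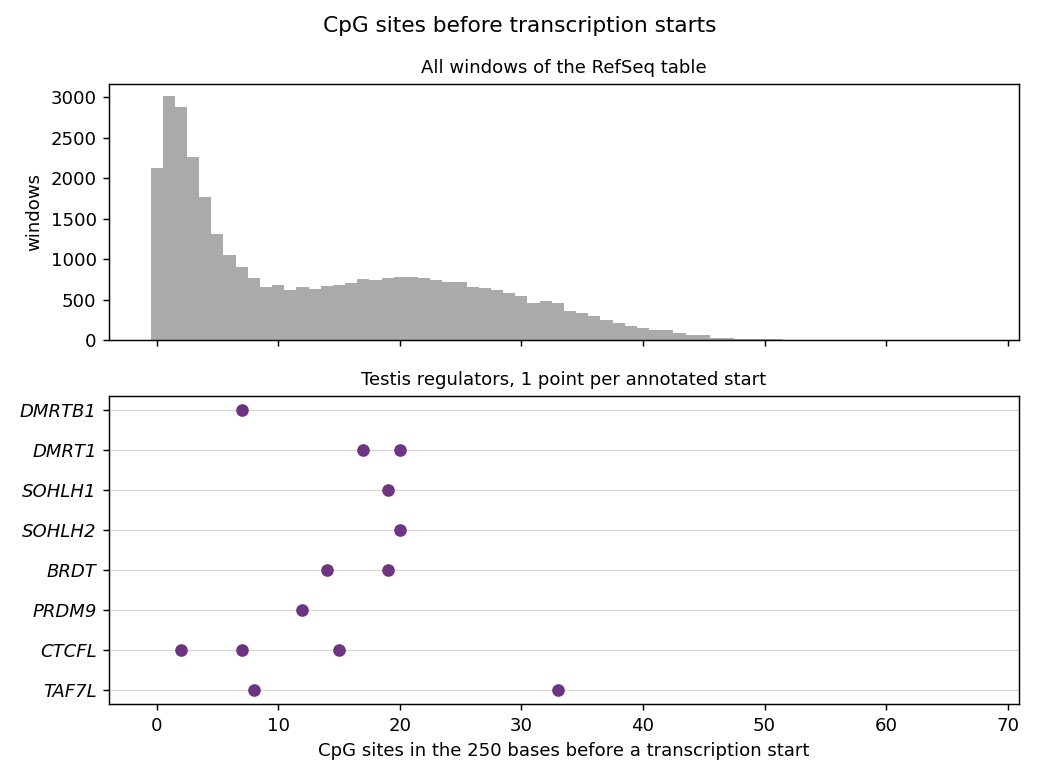
CpG sites in the 250 bases before annotated transcription starts: the upper panel is a histogram over all windows of the RefSeq table, and the lower panel has 1 point for each annotated start of the 8 genes. Of the 13 points, those of *DMRTB1* (7), *CTCFL* (2 and 7) and 1 of *TAF7L* (8) lie below the median of 11 sites.

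Estimated counts summed to between 21934307 and 22489684 per library, so libraries were of almost equal depth. All 5 epithelial markers examined had counts in every library. *KLK3*, the gene of prostate-specific antigen, was at 0 in all libraries, the known state of PC-3. Levels are given as TMM-scaled CPM, the usual unit of counts relative to the size of the library, with the SD of 3 libraries. TMM factors lay between 0.895 and 0.903 in the controls and between 1.033 and 1.078 in treated libraries. A gene was called a DEG at an adjusted p under 0.05 in edgeR's quasi-likelihood test, with adjustment over all 18532 genes tested. Where the controls had no count, the fold is a lower bound against 3 counts summed over the group's 3 libraries. Where they had 1 to 4 counts, the ratio of counts is given with its exact 95% interval, and such bounds and intervals cover counting error only.

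Against the controls, 6 of the 8 genes passed the filter on low counts, and all 6 were upregulated by decitabine and by the combination treatment. The other two, *SOHLH1* and *CTCFL*, had too few counts to be tested. Upregulated DEGs made up 36.3% of all genes tested under decitabine and 35.9% under the combination treatment, and DEGs of either direction 68.8% and 67.2%. Except for *TAF7L*, the tested members passed the filter only through treated libraries, where they were high, so their count by itself carries no weight. Each of the 8 genes had every treated library above every control library, in either treatment. This held for 25.8% of genes with a count for decitabine and for 24.7% for the combination treatment. In RNA from whole cultures, more cells that express a gene and more RNA per cell cannot be told apart.

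**Figure D2:**
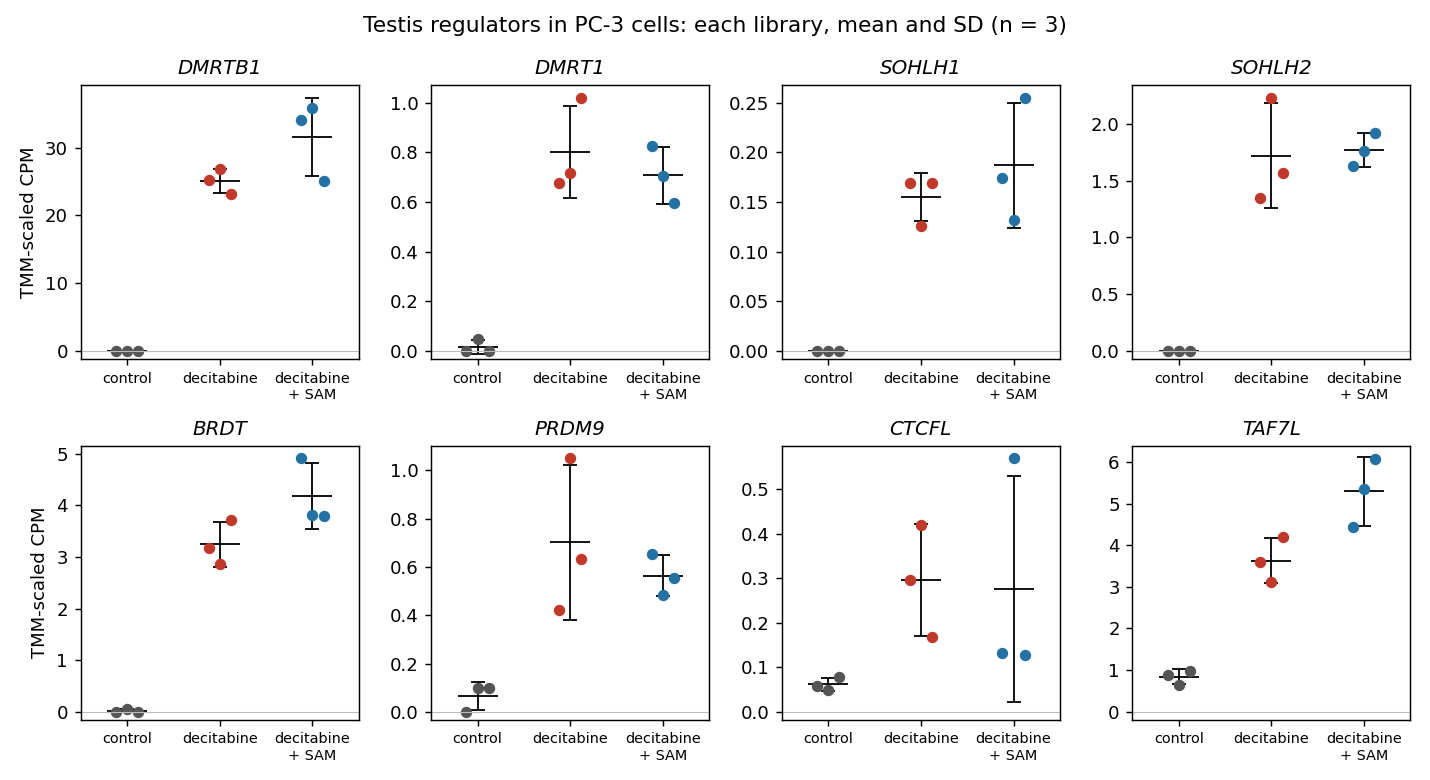
TMM-scaled CPM of the 8 genes in each library (points, 3 per group), with the mean and SD of the group (lines); each panel has its own linear axis. Every treated library lies above every control library in each panel, from *DMRTB1*, at 25.1 ± 1.81 CPM under decitabine, to *SOHLH1*, at 0.155 ± 0.0246.

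The DM-domain genes were silent or almost silent in the controls and differed widely in level after treatment. *DMRTB1* (ENSG00000143006, GRCh38 chromosome 1, 53459399 to 53467488), also known as *DMRT6*, had 0, 0 and 0 counts in the controls. It had 597, 636 and 548 counts under decitabine and 782, 814 and 588 under the combination treatment. No treated library came near the controls. The mean rose to 25.1 ± 1.81 CPM under decitabine, at least 505-fold (adjusted p = 3.27e-10 from edgeR). With the combination treatment it rose to 31.6 ± 5.77 CPM, at least 636-fold (adjusted p = 2.15e-10). Among the 1792 genes with no control count and a count in each decitabine library, *DMRTB1* ranked 14 by mean CPM per kilobase of merged exons, whereas *SOHLH2* ranked 233 and *SOHLH1* ranked 1378.

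*DMRT1* (ENSG00000137090, chromosome 9, 841690 to 969090), which keeps male germ cells and Sertoli cells in their fate, had 0, 1 and 0 control counts. It had 16, 17 and 24 counts under decitabine and 19, 16 and 14 under the combination treatment. The groups did not overlap, but levels stayed low in every treated library, at 0.802 ± 0.185 CPM under decitabine and 0.708 ± 0.115 CPM under the combination treatment. The ratio of counts was 48.5 under decitabine (95% interval 8.36 to 1950), with an adjusted p of 9.03e-06 from edgeR. With the combination treatment the ratio was 42.8 (7.33 to 1720), with an adjusted p of 1.69e-05 from edgeR.

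*DMRT1* begins a cluster of DM-domain genes on chromosome 9, whose other two genes did not share its level. *DMRT2*, a factor of early body patterning that starts 80.8 kb beyond the end of *DMRT1*, had 4, 4 and 3 control counts, 296, 243 and 231 counts under decitabine, and 316, 272 and 247 under the combination treatment. It rose by 5.85 on the log2 scale under decitabine (standard error 0.25, adjusted p = 1.47e-10 from edgeR) and by 6.01 under the combination treatment (standard error 0.24, adjusted p = 1.05e-10). *DMRT3*, which lies between them at 7.6 kb from *DMRT1* and was singled out after its values were seen, had 1, 0 and 0 control counts, 1, 5 and 1 under decitabine and 5, 3 and 2 under the combination treatment, too few to be tested. Per kilobase of merged exons, *DMRT2* reached 3.04 ± 0.41 CPM under decitabine, *DMRT1* 0.247 ± 0.057 and *DMRT3* 0.0365 ± 0.036. The level thus did not follow the distance along the cluster. *DMRTA2*, a DM-domain gene on another chromosome with a role in the developing brain, had no control count and rose at least 10.8-fold under decitabine (adjusted p = 8.39e-05 from edgeR).

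Of the *SOHLH* genes, which act together in spermatogonia and early oocytes, *SOHLH2* was induced and *SOHLH1* was barely detected. *SOHLH2* (ENSG00000120669, chromosome 13, 36168217 to 36214588) had 0, 0 and 0 control counts, 32, 53 and 37 counts under decitabine and 37.5, 40 and 45.2 under the combination treatment. All treated libraries lay far above the controls and the treatments overlapped. Its level rose to 1.72 ± 0.46 CPM under decitabine, at least 34.6-fold (adjusted p = 4.98e-07 from edgeR), and to 1.77 ± 0.147 CPM under the combination treatment, at least 35.8-fold (adjusted p = 4.76e-07). *SOHLH2* shares 1470 exon bases, 43.7% of its merged exons, with the annotated readthrough gene *CCDC169-SOHLH2*, so the split of reads between them is uncertain. The readthrough gene was given 1, 0 and 1.1 counts in the controls, 0, 0 and 0 under decitabine and 6.4, 0 and 3.3 under the combination treatment, which is far below *SOHLH2* in treated libraries.

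*SOHLH1* (ENSG00000165643, chromosome 9, 135693407 to 135704498) had 0, 0 and 0 control counts, 4, 3 and 4 counts under decitabine and 4, 3 and 6 under the combination treatment. Each treated library therefore had a few counts where the controls had none. The change was at least 3.12-fold under decitabine and at least 3.78-fold under the combination treatment. The gene lies opposite *KCNT1* without sharing exon bases. It was not tested under the filter. Without a filter its adjusted p was 0.0051 under decitabine and 0.0021 under the combination treatment in edgeR's test, in which 21.4% and 20.8% of genes were upregulated DEGs.

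*BRDT* (ENSG00000137948, chromosome 1, 91949343 to 92014426), whose protein binds acetylated histones and takes part in their removal in spermatids, had 0, 1 and 0 control counts. It had 75, 68 and 88 counts under decitabine and 113, 87 and 89.4 under the combination treatment. Controls and treated libraries were widely separated. The level rose to 3.25 ± 0.435 CPM under decitabine, a ratio of counts of 197 (95% interval 34.9 to 7800, adjusted p = 1.39e-08 from edgeR). With the combination treatment it rose to 4.18 ± 0.636 CPM, a ratio of 252 (44.9 to 10000, adjusted p = 6.32e-09 from edgeR).

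The somatic BET genes *BRD2* and *BRD3*, whose proteins bind acetylated histones at active genes, were expressed in the controls and had log2 fold changes of no more than 0.64 in size. Per kilobase of merged exons, the control means were 21.9 ± 0.798 CPM for *BRD2* and 6.81 ± 0.0373 for *BRD3*. *BRD2* fell by 0.47 on the log2 scale under decitabine (adjusted p = 2.81e-05 from edgeR) and by 0.64 under the combination treatment (adjusted p = 1.72e-06). *BRD3* had log2 fold changes of -0.24 (adjusted p = 0.00889) and -0.32 (adjusted p = 0.00132) in edgeR's test. With scaling by library size alone, the call of *BRD3* was lost in either treatment, and the sign turned under decitabine (0.01, adjusted p = 0.938). In level per kilobase, *BRDT* amounted to 4.43% ± 0.485 of *BRD2* under decitabine and 6.45% ± 1.43 under the combination treatment, against 0.017% ± 0.0294 in the controls.

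*PRDM9* (ENSG00000164256, chromosome 5, 23443586 to 23528093) methylates histone H3 where its zinc fingers bind and so marks sites of recombination. It had 0, 2 and 2 control counts, 10, 25 and 15 counts under decitabine and 15, 11 and 13 under the combination treatment. The lowest treated library, at 10 counts, was above the highest control at 2. It rose by 3.31 on the log2 scale under decitabine (standard error 0.65, adjusted p = 0.000287 from edgeR), a ratio of counts of 10.6 (95% interval 3.9 to 40.6). With the combination treatment it rose by 2.99 (standard error 0.67, adjusted p = 0.000935 from edgeR), a ratio of 8.51 (3.07 to 32.8).

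*PRDM7*, the closest relative of *PRDM9*, shared 22.7% of the 31-base words of *PRDM9*, so that their reads could be divided between them. It had 0, 1 and 2 control counts, 0, 3 and 3 under decitabine and 0, 0 and 0 under the combination treatment. Its libraries overlapped between controls and decitabine, unlike those of *PRDM9*. Among the other PRDM genes, *PRDM1*, a repressor that also specifies primordial germ cells, rose by 3.83 on the log2 scale under decitabine (standard error 0.61, adjusted p = 8.05e-05 from edgeR). *PRDM11* fell by 0.80 (standard error 0.10, adjusted p = 9.21e-06 from edgeR).

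*CTCFL* (ENSG00000124092, chromosome 20, 57495966 to 57525652) had the lowest mean level per length of the 8 genes in either treatment, although it was above *SOHLH1* in 1 library of each. Its merged exons span 8.93 kb and those of *SOHLH1* 3.64 kb. In CPM its mean was above that of *SOHLH1*, at 0.296 against 0.155 under decitabine and 0.277 against 0.187 under the combination treatment. *CTCFL* had 1.2, 1 and 1.6 control counts, 7, 10 and 4 under decitabine and 3.1, 13 and 3 under the combination treatment. All treated libraries were above all controls, and 1 library of the combination treatment stood well above the other two. The ratio of counts was 4.47 under decitabine (95% interval 1.51 to 17.9) and 4.15 under the combination treatment (1.38 to 16.8). The exact two-sided permutation test gave p = 0.1 in either comparison, the smallest value that 3 against 3 libraries allow. Without a filter its adjusted p in edgeR's test was 0.024 under decitabine and 0.0373 under the combination treatment. *CTCF* itself, the insulator protein of all cells, fell by 0.71 on the log2 scale under decitabine (adjusted p = 1.14e-06 from edgeR) and by 0.55 under the combination treatment (adjusted p = 1.37e-05). Per kilobase, *CTCFL* reached 0.59% ± 0.247 of the level of *CTCF* under decitabine and 0.49% ± 0.435 under the combination treatment, from 0.0751% ± 0.015 in the controls.

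*TAF7L* (ENSG00000102387, chromosome X, 101268253 to 101293057) was the only one of the 8 genes expressed in the controls at a level that passed the filter. It had 18, 13 and 20 control counts, 85.1, 74 and 99 under decitabine and 102, 122 and 143 under the combination treatment. The 3 groups stood in this order without overlap. From 0.843 ± 0.174 CPM in the controls it rose to 3.63 ± 0.536 under decitabine, by 2.10 on the log2 scale (standard error 0.23, adjusted p = 1.94e-06 from edgeR). With the combination treatment it rose to 5.29 ± 0.826 CPM, by 2.64 (standard error 0.23, adjusted p = 1.65e-07). Its autosomal counterpart *TAF7* also rose, by 0.64 under decitabine (adjusted p = 9.07e-07 from edgeR) and by 0.54 under the combination treatment (adjusted p = 5.64e-06). In level per kilobase, *TAF7L* was 1.89% ± 0.411 of *TAF7* in the controls, 5.22% ± 0.786 under decitabine and 8.17% ± 1.21 under the combination treatment.

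TFIID, the complex that carries the TATA-binding protein to promoters, was examined through a list of 20 subunits and relatives. Of the 19 that were tested, 7 rose, 8 fell and 4 did not pass the test under decitabine, and 8 rose, 6 fell and 5 did not pass under the combination treatment. The shares of all genes tested that rose and fell were 36.3% and 32.5% under decitabine, and 35.9% and 31.3% under the combination treatment. With library size alone, 9 rose and 4 fell under decitabine, and 10 rose and 3 fell under the combination treatment. The median log2 fold changes were -0.02 and 0.03, beside 0.04 and 0.05 over all genes tested. *TAF1L*, an intronless copy of *TAF1* used in the testis, had 0, 0 and 0 control counts, 32, 46.5 and 36.1 under decitabine and 24.1, 55.3 and 46.1 under the combination treatment, and rose at least 32.6-fold under decitabine (adjusted p = 3.26e-06 from edgeR). *TAF13*, *TAF11* and *TAF5* rose by 0.72, 0.67 and 0.56 on the log2 scale under decitabine (adjusted p = 0.000363, 7.95e-06 and 0.000276 from edgeR). *TAF15*, an RNA-binding protein found with TFIID, fell by 0.68 (adjusted p = 4.08e-05).

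**Figure D3:**
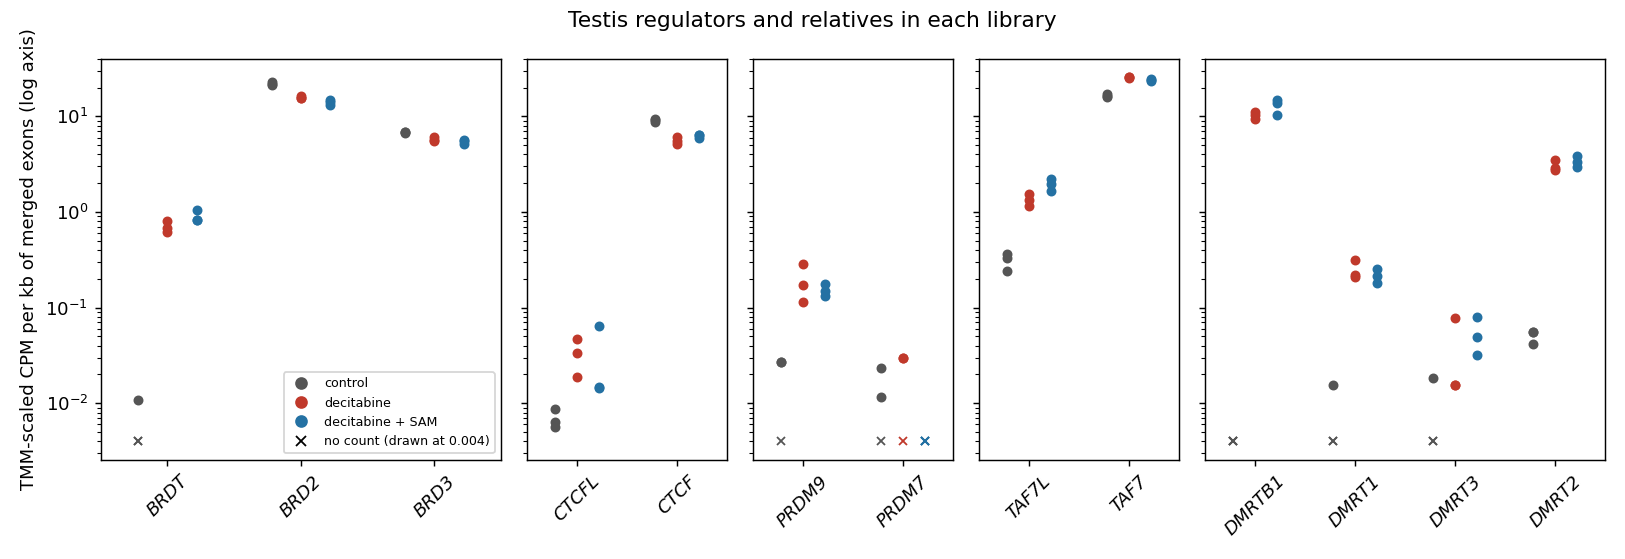
TMM-scaled CPM per kilobase of merged exons, on a log axis, for the germline genes and their relatives in each library; crosses mark libraries with no count. *BRDT*, *CTCFL* and *TAF7L* stay below *BRD2*, *CTCF* and *TAF7* in every treated library, and among the DM-domain genes *DMRTB1* and *DMRT2* lie above *DMRT1* and *DMRT3*.

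Levels of different members were compared as CPM per kilobase of merged exons. The merged exons were those of all annotated transcripts, whichever of them were expressed. With decitabine the order was *DMRTB1* (10.3 ± 0.742), *TAF7L* (1.34 ± 0.198), *BRDT* (0.701 ± 0.0939), *SOHLH2* (0.51 ± 0.137), *DMRT1* (0.247 ± 0.057), *PRDM9* (0.191 ± 0.0871), *SOHLH1* (0.0425 ± 0.00676) and *CTCFL* (0.0331 ± 0.0141). *BRDT* and *SOHLH2* overlapped between libraries, as did *DMRT1* and *PRDM9*, and *SOHLH1* and *CTCFL*. The combination treatment gave the same order, from 12.9 ± 2.36 for *DMRTB1* to 0.0311 ± 0.0285 for *CTCFL*, and there only *SOHLH1* and *CTCFL* overlapped among neighbours.

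Whether SAM changed the response to decitabine was examined by comparing the combination treatment under decitabine, both at 1 µM of decitabine. None of the 6 tested genes was a DEG in edgeR's test without a replicate block, whereas 15.7% of all genes tested were, 7.67% upward and 8.02% downward. At an unadjusted p under 0.05 there were 2 of 6, *TAF7L* and *DMRTB1*. DESeq2 also called none of the 6, but it gave no adjusted p for *PRDM9* and *DMRT1*. *TAF7L* differed by 0.54 on the log2 scale (95% interval 0.15 to 0.94, adjusted p = 0.0612 from edgeR), and its lowest library of the combination treatment, at 4.44 CPM, was above the highest decitabine library, at 4.19. With voom and limma its adjusted p was 0.0498. *DMRTB1* differed by 0.33 (95% interval 0.05 to 0.61, adjusted p = 0.0986 from edgeR) and its groups overlapped. Without a filter on low counts, a fit in which 4.84% of genes were higher under the combination treatment, its adjusted p was 0.0186. When each library was left out in turn, the difference of *DMRTB1* ranged from 0.24 to 0.48 and its adjusted p from 0.00626 to 0.351. It passed the threshold in 1 of the 9, without library 3 of the combination treatment, which held that group's lowest level. The difference of *TAF7L* ranged from 0.43 to 0.66 and its adjusted p from 0.0465 to 0.229, and it passed in 1 of the 9, without library 3 of the decitabine group. In a fit with a block for the replicate number, *TAF7L* and *DMRTB1* both passed (adjusted p = 0.0338 and 0.0351 from edgeR). That fit called 3656 of 18532 genes.

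*BRDT* differed by 0.36 between the treatments (95% interval -0.08 to 0.80, adjusted p = 0.25 from edgeR), with no overlap between the libraries, at 3.80 CPM for the lowest library of the combination treatment and 3.72 for the highest of decitabine. Over all genes with a count, every library of the combination treatment lay above every decitabine library in 10.7%. *SOHLH2* differed by 0.05 (95% interval -0.51 to 0.61, adjusted p = 0.919 from edgeR), *DMRT1* by -0.18 (-0.90 to 0.54, adjusted p = 0.753) and *PRDM9* by -0.32 (-1.20 to 0.56, adjusted p = 0.635). Each of these 3 intervals spans 0. For *CTCFL* and *SOHLH1* the exact two-sided permutation test between the treatments gave p = 0.8 and p = 0.4.

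**Figure D4:**
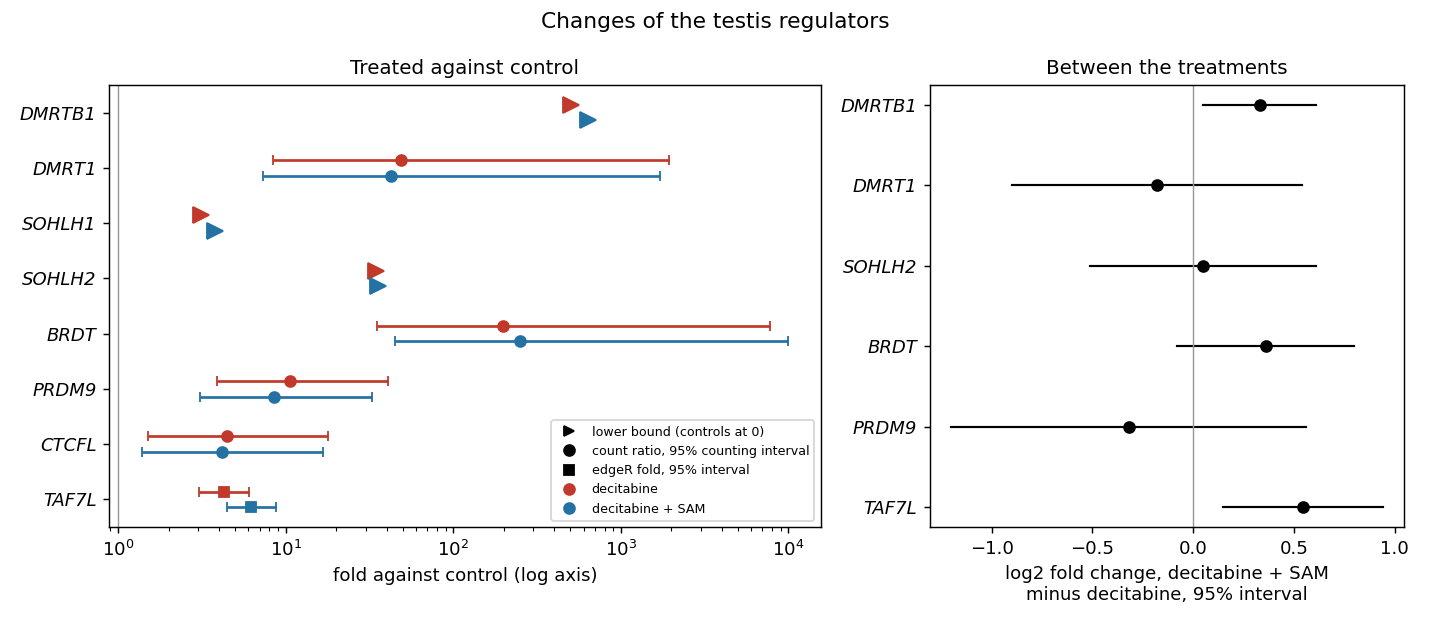
Left: fold of each treatment against the controls on a log axis, as a lower bound where the controls had no count (triangles), as a ratio of counts with its exact 95% interval (circles) and as edgeR's fold with its 95% interval for *TAF7L* (squares). Right: log2 fold change of the combination treatment minus decitabine with 95% intervals for the 6 tested genes, where the intervals of *TAF7L* and *DMRTB1* lie above 0 and the others span it.

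Relatives of the members in their protein families formed a list of 29 genes, of which 20 were tested. With decitabine 5 rose, 10 fell and 5 did not pass the test, and under the combination treatment 6 rose, 9 fell and 5 did not pass. Over all genes tested, 36.3% rose and 32.5% fell under decitabine, and 35.9% rose and 31.3% fell under the combination treatment. The median log2 fold change was -0.26 in either comparison, beside 0.04 and 0.05 over all genes tested. With library size alone, 6 rose and 5 fell in either comparison. No relative was a DEG between the treatments in edgeR's test, beside 15.7% of all genes tested, with 3 at an unadjusted p under 0.05. DESeq2's size factors and voom with limma also gave 0 calls.

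Other regulators and chromatin proteins of germ cells formed a list of 52 genes, of which 21 had no control count and 30 were tested. With decitabine 21 rose, 4 fell and 5 did not pass the test, and under the combination treatment 22 rose, 3 fell and 5 did not pass. With library size alone, 24 rose and 0 fell under decitabine, and 23 rose and 1 fell under the combination treatment. These shares stand beside 36.3% and 35.9% of all genes called upward, but 35 of the 52 genes had at most 4 control counts in all, and such genes passed the filter only through treated libraries where they were high, so the counts and medians carry no weight as support. The median log2 fold change was 4.04 under decitabine and 4.03 under the combination treatment, beside 0.04 and 0.05 over all genes tested, and 3.72 and 3.71 with genes absent from the controls set to their lower bounds. *TDRD9* and *TDRD1*, Tudor-domain proteins of the piRNA pathway that silences transposons, had no control counts and rose at least 185-fold and 74.6-fold under decitabine (adjusted p = 2.97e-10 and 8.24e-09 from edgeR). *HORMAD1*, a protein of the meiotic chromosome axis, rose at least 170-fold (adjusted p = 1.01e-09). *H2AB1*, a short histone H2A variant of the testis, went from 1 control count to 157.6, 201.8 and 230.6 under decitabine, a ratio of 503 (95% interval 89.9 to 19900, adjusted p = 5.51e-10 from edgeR).

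Between the treatments, 2 of these 30 genes were DEGs, beside 15.7% of all genes tested. *PHF7*, a reader and writer of histone marks in the male germline, fell by 1.15 on the log2 scale under the combination treatment relative to decitabine (standard error 0.15, adjusted p = 0.000677 from edgeR), at 128.4, 108 and 164 counts against 338, 313 and 261. *SALL4*, a zinc finger factor of germline stem cells, was higher under the combination treatment by 0.40 (adjusted p = 0.0418 from edgeR), a call lost with library size alone (adjusted p = 0.0511). In TFIID, 4 of 19 were DEGs between the treatments, also beside 15.7% of all genes tested. With library size alone 1 rose and 1 fell there, and with DESeq2's size factors or voom with limma 2 rose and 1 fell. *TAF15* fell by a further 0.74 (standard error 0.10, adjusted p = 0.000885 from edgeR) and *TAF5* rose by a further 0.43 (standard error 0.10, adjusted p = 0.012).

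Partners of the members and genes described as their targets formed a list of 32 genes, of which 17 were tested. With decitabine 7 rose, 6 fell and 4 did not pass the test (median log2 fold change -0.12), and under the combination treatment 8 rose, 4 fell and 5 did not pass (median -0.16). Among all genes tested, 36.3% rose and 32.5% fell under decitabine (median 0.04). The combination treatment had 35.9% and 31.3% (median 0.05). With library size alone, 8 rose and 4 fell under decitabine, and 8 rose and 2 fell under the combination treatment. *CTAG1B* and *PRSS50*, described as targets of *CTCFL*, each had 1 control count. *CTAG1B* rose by a ratio of 56.2 under decitabine (95% interval 9.73 to 2250, adjusted p = 5.18e-05 from edgeR) and *PRSS50* by a ratio of 29.8 (5.01 to 1210, adjusted p = 0.000239). *H1-6*, the testis linker histone, rose by a ratio of 35.7 (6.07 to 1440, adjusted p = 0.000116). *FOXL2*, an ovarian factor that *DMRT1* keeps off in the testis, had no control count and rose at least 7.37-fold under decitabine (adjusted p = 0.000127 from edgeR).

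*CCNA1*, the meiotic cyclin, had 201, 223 and 192 control counts, 1147, 1125 and 980 under decitabine and 725, 656 and 750 under the combination treatment. It rose by 2.17 on the log2 scale under decitabine (standard error 0.10, adjusted p = 2.88e-10 from edgeR) and was lower under the combination treatment than under decitabine by 0.57 (log2 fold change -0.57, standard error 0.09, adjusted p = 0.00158). *CXXC1*, a CpG-binding protein that contacts PRDM9, had a log2 fold change of 0.15 under decitabine (adjusted p = 0.172 from edgeR; 0.40 and adjusted p = 0.00152 with library size alone). It was higher under the combination treatment than under decitabine by 0.41 (standard error 0.09, adjusted p = 0.0102 from edgeR). Of the 17 genes, 3 rose and 1 fell between the treatments, beside 7.67% and 8.02% of all genes tested. With library size alone or voom with limma, 2 rose and 1 fell.

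The genes whose pattern was most like that of each tested member were found by Pearson's r of log2 CPM over the 9 libraries, given as a description only, since any gene that separates controls from treated libraries scores high. They were *ELOBP2*, *CTLA4* and *GPAT2* for *DMRTB1* (r of 0.9998, 0.9996 and 0.9995), *AVPR1A*, *ENSG00000257512* and *MEI1* for *DMRT1* (0.9969, 0.9967 and 0.9962), and *SRSF8BP*, *MDGA2* and *PRSS21* for *SOHLH2* (0.9991, 0.9988 and 0.9987). For *BRDT* they were *ZNF274*, *TEX13D* and *RHOXF2* (0.9986, 0.9982 and 0.9981), for *PRDM9* *ERICH5* and *ADGRB1* (0.9904 and 0.9829), and for *TAF7L* *ARG2*, *LRRN3* and *CBLB* (0.9953, 0.9936 and 0.9930). Most of these genes had few or no counts in the controls, but *CBLB* had a mean of 729.7 and *ZNF274* of 502.3 control counts.

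Markers of other cell types also moved with treatment. The summed level of 6 germ cell markers was 0.35 to 0.592 CPM in the controls, 180 to 282 under decitabine and 185 to 241 under the combination treatment, while the spermatid genes *PRM1*, *PRM2* and *TNP1* were at 0 in all libraries. *DAZL* made up most of the treated sums, at 209 ± 50.3 CPM under decitabine and 181 ± 25.3 under the combination treatment. Summed markers of fibroblasts and endothelium were 14.6 to 16.3 CPM in the controls, 88.6 to 100 under decitabine and 84.4 to 95.6 under the combination treatment, with 4 of 5 genes in every control library and 5 of 5 in every treated library. Of the 4 tested, *COL1A1* and *PECAM1* rose in either treatment and carried the sum, while *COL3A1* and *PDGFRB* did not pass the test in edgeR. Leukocyte markers went from 0.198 to 0.3 CPM in the controls to 1.65 to 2.23 and 1.49 to 1.83. Testis somatic markers were 2.99 to 4.04 CPM in the controls, 4.52 to 6.51 under decitabine and 6.25 to 7.48 under the combination treatment. Of the 2 tested, *INSL3* rose in either treatment, while *AMH* rose only under the combination treatment (adjusted p = 0.551 under decitabine from edgeR). Summed epithelial markers were 874 to 955 CPM in the controls, 868 to 920 under decitabine and 726 to 866 under the combination treatment. The last range lay wholly below the controls in TMM-scaled CPM. This separation depends on the TMM factors, which were lower in the controls than in treated libraries. In either treatment *CDH1* and *KRT8* rose, *KRT18* and *KRT19* fell, and *EPCAM* did not pass the test in edgeR, but with library size alone *EPCAM* rose in either treatment and the call of *KRT18* under decitabine was lost. The part of any of these in the levels of the 8 genes was not tested.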

How the data were processed

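RNA of PC-3 cells was sequenced on the BGISEQ-500 platform in 3 libraries each of controls, decitabine and the combination treatment. Per the labels, reads were trimmed with Trim Galore 0.6.4, quantified with kallisto against GRCh38.p13 and handled with edgeR 3.17, and the annotation release is not given in the sources used here. The values used are estimated counts per Ensembl gene, which the authors deposited without normalization. The deposited log2 CPM files were not used. Of 60617 identifiers, 60357 were matched to symbols with GENCODE release 44, whose GRCh38 models also gave positions and exons.

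The estimated counts were rounded and tested with edgeR 4.0.16 in R 4.3.3: filterByExpr, TMM scaling, robust quasi-likelihood fits of all 9 libraries with 1 mean per group and no block, and Benjamini-Hochberg adjustment over 18532 genes at 0.05. The members and gene lists were chosen with earlier results of these data known. Besides the members and their direct counterparts, each list contributed the up to 4 DEGs with the largest change with decitabine at a mean of at least 10 counts, the up to 2 DEGs with the smallest adjusted p between the treatments, and each tested member the 3 genes of closest pattern. Values of a few such genes are not reported here. Genes named outside this rule are marked as such or serve a check of annotation or markers. Alternatives were DESeq2 1.42.0 and its size factors, library size alone, voom with limma 3.58.1, no filter, a filter at a mean of 10 counts, fits to just the 6 libraries of a comparison, a replicate block, a fold threshold of 1 on the log2 scale and leaving out each library. The fits were tested on simulated data. There, far fewer genes changed than were called here, and all of these were well expressed in the controls. Genes almost silent in the controls were therefore not covered. Libraries of a group differed by a chi-square per degree of freedom of 5.86 to 23.5 over genes with at least 20 counts, so none was a copy. Tables and plots were made in Python 3.11.15 with matplotlib 3.10.9, numpy 2.4.6 and pandas 2.3.3.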

Additional observations from a re-analysis of the deposited data

How the results depend on the processing

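Against the controls, all 6 tested members were upregulated under every alternative run, including each of the 9 fits that left out 1 library. With no filter, 8 of 8 were upregulated, where 21.4% of all genes were with decitabine and 20.8% with the combination treatment. Except for *TAF7L*, the tested members passed the filter only through treated libraries, so these counts by themselves carry no weight. With a fold threshold of 1 on the log2 scale, DEGs numbered 3647 with decitabine (12759 without it), 3361 with the combination treatment (12446) and, between treatments, 0 (2908). Leaving out each library gave 11956 to 13160, 11739 to 12751 and 861 to 4064 DEGs in these comparisons. Between the treatments it gave 1783 without decitabine library 1, 1004 without decitabine library 2, 1362 without library 1 of the combination treatment and 861 without library 2. With library size alone, the upregulated share of DEGs was 70.2% instead of 52.7% with decitabine, 69.2% instead of 53.4% with the combination treatment and, between treatments, 41.6% instead of 48.9%. Between the treatments, the number of members called was 0, and became 1 with voom and limma (*TAF7L*), 1 with no filter (*DMRTB1*), 2 with the replicate block (*TAF7L*, adjusted p = 0.0338, and *DMRTB1*, adjusted p = 0.0351, both from edgeR), and 0 to 1 when a library was left out. The labels give the replicate numbers no meaning and not every same-number correlation of deviations was over 0.1, so the numbers were not taken to pair the libraries. Between decitabine and the combination treatment these correlations were 0.23, 0.04 and 0.23, and in the 6 pairs with controls they lay between -0.02 and 0.07. Over all groups, libraries matched their own number best in 10 of 18 cases. Between decitabine and the combination treatment every library did so, and numbers 1 and 3 across these treatments correlated at -0.22. Whether *TAF7L* and *DMRTB1* are called there thus depends on whether the numbers pair the libraries, which the labels do not say. With a library left out, the sign between the treatments turned for *SOHLH2* (-0.097, -0.014 and -0.008 in 3 fits, up to 0.283), *PRDM9* (-0.579 to 0.091) and *DMRT1* (-0.307 to 0.024). DESeq2 gave no adjusted p for *PRDM9* and *DMRT1* there. Without control library 2, which held the only control count of *BRDT* and *DMRT1*, their fitted log2 fold changes with decitabine were 9.20 and 7.19 instead of 7.20 and 5.19. The causes of the other shifts were not tested. With at most 13 counts in any library, *CTCFL* and *SOHLH1* are limited by depth.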

Other observations

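Some genes described as downstream of the members stood outside the rule for named genes and were chosen after their values were seen. *KIT*, a receptor of differentiating spermatogonia described as a target of the *SOHLH* factors, had 1, 1 and 0 control counts and 0 counts in all 6 treated libraries, so no fold is given. *STRA8*, the meiotic gatekeeper whose promoter *DMRT1* occupies, had no control count, 5, 6 and 7 counts with decitabine and 0, 6 and 5 with the combination treatment, too few to be tested. Its partner *MEIOSIN* had 2, 1 and 6 control counts and rose by 3.38 on the log2 scale with decitabine (standard error 0.43, adjusted p = 7.06e-06 from edgeR) and by 3.41 with the combination treatment (adjusted p = 6.83e-06).

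*STAG3*, a meiotic cohesin subunit described as a target of *CTCFL*, had 32.4, 33.5 and 45.7 control counts, 450.3, 338.3 and 362 with decitabine and 517.6, 594 and 468.4 with the combination treatment. It rose by 3.14 and 3.63 on the log2 scale (adjusted p = 2.69e-09 and 5.89e-10 from edgeR) and lay 0.50 higher under the combination treatment than under decitabine (standard error 0.14, adjusted p = 0.0251). *TERT*, another gene of the lists examined, went the other way, from 380, 436 and 371 control counts. It had 179, 152 and 167 counts with decitabine and 134, 146 and 124 with the combination treatment.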
